A study of Mus musculus with 2 samples.

Results

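Sox genes encode transcription factors that bind DNA through an HMG box, and 9 of them were followed here through the cell groups of the mouse colon: Sox4, Sox5, Sox6, Sox7, Sox9, Sox10, Sox13, Sox17 and Sox18. They were a given list of genes. This list, like the gene lists and marker panels used below, was set with earlier results of these data known. All 9 of 9 are listed among the 17809 genes of the wild-type table, and 6 are listed among the 15972 genes of the reporter table, where Sox10, Sox17 and Sox18 have no row. In the wild-type library Sox4 had a count above 0 in 3506 cells, Sox9 in 2723, Sox6 in 815, Sox13 in 778, Sox5 in 680, Sox18 in 567, Sox17 in 448, Sox7 in 299 and Sox10 in 64.

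The wild-type library held 7495 colon cells of C57BL/6 mice, in which sorted epithelial cells (EpCAM+, CD45-) and sorted non-epithelial cells (EpCAM-, CD45-) had been mixed in equal parts. The reporter library held 4409 GFP-positive mesenchymal cells of the colon of Pdgfra-H2B-eGFP mice, in which nuclear GFP is made from the Pdgfra locus. Both came from female mice aged 8 to 12 weeks, 3 animals pooled for each library, and used 10x Genomics 3' kits, V3 for the wild-type and V2 for the reporter. With 1 library each and no record of which animal a cell came from, no test across mice was possible, no p-value is given, and intervals cover counting error only. The values are corrected counts, that is, molecules per gene and cell adjusted by the authors to a common depth. The totals per cell ran from 6120 to 16389 (median 8972) for wild-type cells, and from 2314 to 4432 (median 3150) for reporter cells. By these values 101 wild-type and 2 reporter cells lay outside the limits on genes and mitochondrial share that the study states. They were kept here.

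Each cell was put in a group by the summed level of fixed marker panels that hold no Sox gene, so groups are named "-like" throughout. In each of the 17 wild-type groups compared, at least 3 markers of the panel stood 2-fold or more above the other gated cells, among them all 10 for the CTFs-like, blood endothelial-like and glia-like groups and all 4 for the crypt base-like group. These are the genes that gated the cells, so their higher level follows from the gating and is no separate check of the group names. CTFs and CBFs are the crypt top and crypt bottom fibroblasts of the study, the first with high and the second with low Pdgfra. Cells that no panel claimed, 295 wild-type and 271 reporter cells, stayed ungated. The sort and the mixing set how many cells each group holds, so group sizes are not compared. Too few cells were called doublets for that call to be of use (7 wild-type and 5 reporter cells), so doublets were kept.

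The 9 genes fall into families that share much of the HMG box. Sox4 is of the SoxC family, Sox5, Sox6 and Sox13 of SoxD, Sox9 and Sox10 of SoxE, and Sox7, Sox17 and Sox18 of SoxF. SoxD proteins lack a transactivation domain of their own and work through partner proteins. Sox5 and Sox6 act with Sox9 in cartilage, Sox9 is also known from the proliferating part of the intestinal crypt, Sox10 from neural crest and glia, and SoxF genes from blood and lymphatic vessels.

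Sox4, Sox5 and Sox6 were the members 2-fold or more higher in CTFs-like than in CBFs-like wild-type cells, and bases before their RefSeq starts are shown for that reason. Sox13 was higher too, by less than 2-fold (log2 ratio 0.90), and is not shown. The stretches shown are all on the minus strand of GRCm38, written 5′ to 3′, and bases that GENCODE M21 annotates as exon were left out. Capitals mark ACAAAG or its reverse complement CTTTGT, and AACAAT or its reverse complement ATTGTT, which are core letters that HMG-box factors such as Sox and TCF proteins are known to bind. The Sox4 stretch is chr13:28953714-28953949 and the Sox5 stretch, before a start inside the gene, is chr6:143947107-143947356. The Sox6 stretches are chr7:116038797-116038994, before the outermost start, and chr7:115824711-115824960, before an inner one.
Sox4: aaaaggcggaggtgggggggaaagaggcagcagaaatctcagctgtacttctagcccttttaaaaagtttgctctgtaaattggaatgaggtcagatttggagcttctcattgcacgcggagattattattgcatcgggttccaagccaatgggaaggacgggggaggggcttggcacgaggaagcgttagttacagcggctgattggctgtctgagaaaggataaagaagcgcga
Sox5: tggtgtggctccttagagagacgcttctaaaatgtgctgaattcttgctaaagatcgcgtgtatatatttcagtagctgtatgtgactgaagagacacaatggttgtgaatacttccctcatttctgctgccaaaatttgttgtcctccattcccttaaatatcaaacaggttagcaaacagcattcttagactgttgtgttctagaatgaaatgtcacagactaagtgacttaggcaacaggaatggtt
Sox6, outermost start: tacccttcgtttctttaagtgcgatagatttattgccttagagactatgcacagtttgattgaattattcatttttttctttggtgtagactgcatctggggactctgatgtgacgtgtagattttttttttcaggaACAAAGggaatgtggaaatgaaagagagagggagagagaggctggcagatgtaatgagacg
Sox6, inner start: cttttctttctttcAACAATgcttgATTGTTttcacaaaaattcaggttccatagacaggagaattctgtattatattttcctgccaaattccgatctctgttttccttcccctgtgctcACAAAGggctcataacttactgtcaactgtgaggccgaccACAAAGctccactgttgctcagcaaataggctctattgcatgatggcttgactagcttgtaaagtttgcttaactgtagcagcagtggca

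The outermost Sox6 stretch holds 1 ACAAAG, beginning 113 bases before its RefSeq start. That stretch stops 52 bases short of the start, since those bases are annotated as exon. The inner stretch holds 2 ACAAAG (130 and 90 bases before its start) and 2 AACAAT (236 bases before it forward and 225 in reverse). Both strands were searched, and each motif was counted separately. The inner one was chosen after the matches were seen, as the window of the 6 with the most. The other 4 inner ones hold 1, 2, 1 and 0, all ACAAAG. The Sox4 and Sox5 stretches hold neither. Among 32851 windows of 250 bases before RefSeq starts, 16.5% hold ACAAAG and 9.42% hold AACAAT on either strand. In windows of the length of the outermost Sox6 stretch, 198 bases, ACAAAG was found in 13.4%. Windows were given for 4 of the 9 members, Sox13 being the other one, and for Sox6 at 6 starts.

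**Figure D1:**
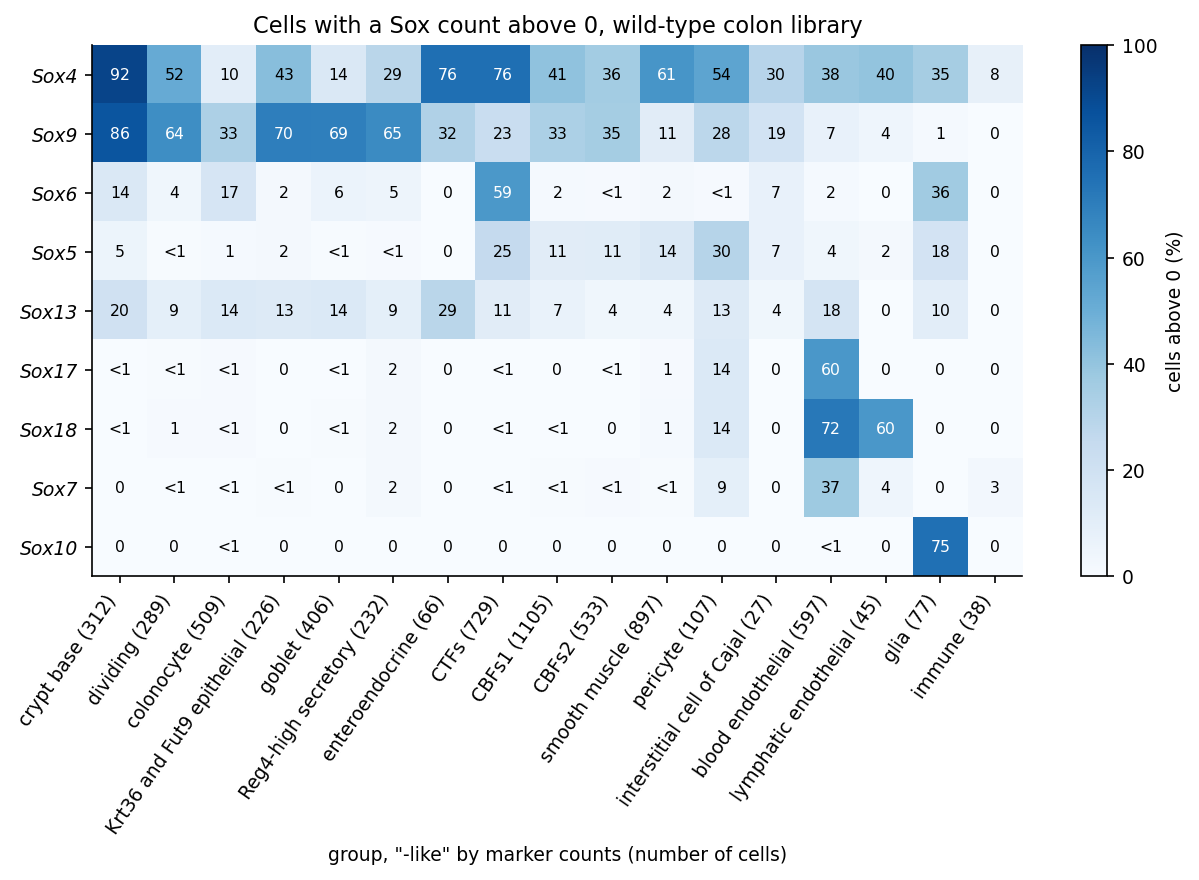
Share of cells with a count above 0 (colour and printed value, %) for the 9 Sox genes (rows) in 17 groups of the wild-type library (columns, with cell numbers); values under 1 but not 0 are printed as <1. Sox4 and Sox9 fill many columns, Sox6 mainly the CTFs-like and glia-like ones, Sox17, Sox18 and Sox7 the blood endothelial-like one, Sox18 also the lymphatic one, and Sox10 the glia-like one.

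In the epithelium, Sox4 and Sox9 were both highest in the crypt base-like cells, gated by Lgr5, Axin2, Ascl2 and Smoc2. They then parted, Sox4 remaining high in enteroendocrine-like and Sox9 in goblet-like cells. Sox4 had a mean corrected count of 5.40 per cell in the 312 crypt base-like cells and was above 0 in 92.0% of them (95% Clopper-Pearson interval 88.4% to 94.7%). Its mean was 1.93 in the 289 dividing cells (51.6% of them above 0), and 0.224 in the 509 colonocyte-like cells, the absorptive lineage (10.2%, interval 7.72% to 13.2%). The 3 intervals do not overlap.

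The secretory lineages differed for Sox4. In the 66 enteroendocrine-like cells, which make gut hormones, the Sox4 mean was 4.09, with 75.8% of cells above 0 (63.6% to 85.5%). In the 406 goblet-like cells, which make mucus, it was 0.266 (14.3%, 11.03% to 18.1%). In the 232 Reg4-high secretory-like cells it was 1.19 (28.9%). Immune-like cells, of which 38 came through the CD45- sort, had Sox4 above 0 in 3 cells (7.89%).

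Sox9, a SoxE gene, took another course. The mean was 3.19 in crypt base-like cells (85.9% above 0, 81.5% to 89.6%), 2.12 in goblet-like (69.2%), 1.99 in Krt36 and Fut9 epithelial-like (69.9%), 1.72 in dividing (64.0%) and 1.51 in Reg4-high secretory-like cells (65.1%). The intervals of the last 4 shares overlap, and they lie above those of colonocyte-like cells (mean 0.652, 32.6%, 28.6% to 36.9%) and enteroendocrine-like cells (mean 0.818, 31.8%, 20.9% to 44.4%). Goblet-like cells thus had Sox9 above 0 in about the share of the dividing cells while Sox4 was above 0 in few of them. Outside epithelium and fibroblasts, Sox9 was above 0 in 28.04% of pericyte-like, 23.8% of red blood cell-like, 18.5% of interstitial cell of Cajal-like, 11.04% of smooth muscle-like, 7.04% of blood endothelial-like, 4.44% of lymphatic endothelial-like and 1.30% of glia-like cells, and in 0 of 38 immune-like cells, which allows up to 7.89%. Only 21 cells were red blood cell-like, with a median of 1883 genes, and 27 were interstitial cell of Cajal-like. The part of mixed droplets in these Sox9 counts was not tested.

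Crypt base-like and dividing cells as 1 group stood 4.0 above colonocyte-like cells on the log2 scale for Sox4 (means 3.73 and 0.224) and 1.91 for Sox9 (means 2.48 and 0.652). Here and below a log2 ratio is that of the group means plus 0.01, and a ratio counts as passed at 2-fold, for members with a mean of at least 0.02 in one group. A gene under 0.02 in the other group can pass only toward the group that let it in. Both ratios passed, 2 of 5 members, all upward, whereas 44.7% of all 12479 genes passed in either direction, 32.9% upward and 11.8% downward, so the number of members that passed is close to the background. The other 3 members did not pass. The log2 ratio was -0.74 for Sox6, 0.12 for Sox13 and 0.75 for Sox5.

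Counting cells by Lgr5, a stem cell receptor and one of the gate genes, gave the same picture on the cell level. Since Lgr5 helped to gate the crypt base-like cells, this count is no separate check. Sox4 was above 0 in 34.7% of 2567 epithelial-like cells with no Lgr5 count, in 90.8% of 207 cells with 1 to 2 and in 96.7% of 60 cells with 3 to 10. For Sox9 the shares were 57.0%, 83.1% and 91.7%. A cell held 3104, 3377 and 3447 genes at the median in these bins, so the bins with more Lgr5 also held somewhat more genes. Of the 287 crypt base-like cells with Sox4, 88.2% had Sox9 as well, against 60.0% of those without Sox4.

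Along Muc2, the main colonic mucin and a goblet gate gene, Sox4 and Sox9 differed. Sox4 was above 0 in 44.9% of 1597 cells without Muc2, 52.9% of 344 with 1 to 2 counts, 52.1% of 117 with 3 to 10, 31.2% of 413 with 11 to 100, and 13.5% of 363 with over 100. Sox9 was above 0 in 60.3%, 50.3%, 47.9%, 53.3% and 76.3% of the same cells. Sox4 was thus lowest, and Sox9 highest, in the bin with the most Muc2.

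The SoxD genes were thinly spread in the epithelium. Sox6 was above 0 in 16.7% of colonocyte-like (13.6% to 20.2%) and 14.4% of crypt base-like cells (10.7% to 18.8%), yet in 3.81% of dividing (1.92% to 6.71%), 5.91% of goblet-like and 0 of 66 enteroendocrine-like cells. Nearly every such cell held a single count (mean 1.04 in the positive colonocyte-like cells). The summed CTFs markers had a median of 2 in colonocyte-like cells with and without Sox6. By Cyp2c55, a colonocyte gate gene, Sox6 was above 0 in 5.82% of 2131 cells without it and 18.1% of 277 cells with 11 to 100 counts, and Sox9 in 66.1% and 29.6%. Sox13 was above 0 in 28.8% of enteroendocrine-like (18.3% to 41.3%), 19.6% of crypt base-like and 9.05% to 14.0% of the other epithelial groups named. Sox5 was above 0 in 1.62% of all 2834 epithelial-like cells.

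**Figure D2:**
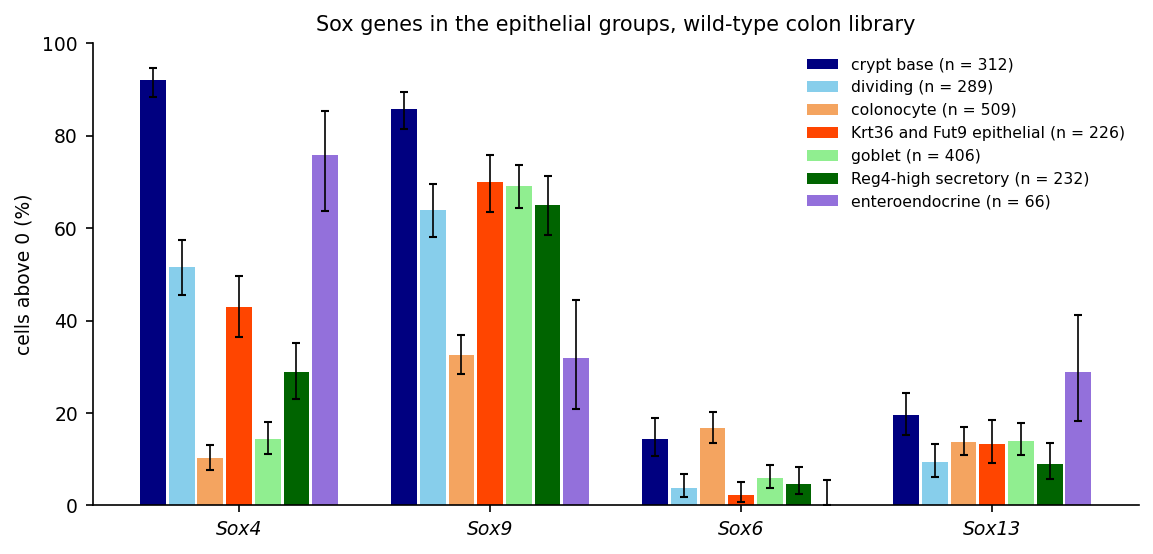
Share of cells above 0 (%, bars) of Sox4, Sox9, Sox6 and Sox13 in 7 epithelial-like groups of the wild-type library, with 95% Clopper-Pearson intervals (lines) that cover counting error only. Both Sox4 and Sox9 were highest in crypt base-like cells, at 92.0% and 85.9%; enteroendocrine-like cells reached 75.8% for Sox4 and goblet-like cells 69.2% for Sox9.

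In the fibroblasts, Sox6 and Sox4 were higher in CTFs-like than in CBFs-like cells in both libraries, Sox6 by the widest margin of the members. In the wild-type library Sox6 had a mean of 1.47 in 729 CTFs-like cells (59.4% above 0, 55.7% to 63.0%) and 0.0192 in 1667 CBFs-like cells (1.44%, 0.925% to 2.13%), a log2 ratio of 5.66. In the reporter library the means were 0.446 in 448 CTFs-like cells (35.0%, 30.6% to 39.7%) and 0.00836 in 3111 CBFs-like cells (0.707%, 0.444% to 1.07%), a log2 ratio of 4.64. The shares in the libraries are not at one depth. With each cell thinned to 2000 counts, Sox6 was above 0 in 25.4% of wild-type and 22.5% of reporter CTFs-like cells, and in 0.420% and 0.611% of the CBFs-like cells.

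For Sox4 the wild-type mean of CTFs-like cells was 2.41, against 0.792 in the CBFs-like ones (75.7% and 39.2% above 0, log2 ratio 1.59). The reporter means were 0.656 and 0.197 (45.5% and 15.2%, log2 ratio 1.68). Sox5 passed in the wild-type, with means of 0.354 and 0.127 (25.4% and 11.3%, log2 ratio 1.41), but its ratio fell just under 2-fold with a larger pseudocount of 0.1 (log2 ratio 0.9986). In the reporter library Sox5 had a log2 ratio of 0.54 and was above 0 in 4.91% of CTFs-like cells (3.103% to 7.34%) and 3.09% of CBFs-like cells (2.51% to 3.76%), intervals that overlap. Whether the libraries differ for Sox5 was not tested. Sox13 did not pass in either library (log2 ratio 0.90 and 0.82), nor did Sox9 (-0.64 and -0.82), whose share above 0 was 23.3% in CTFs-like against 33.8% in CBFs-like wild-type cells.

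In all, 3 of the 5 members that met the minimum level passed in the wild-type library and 2 of 5 in the reporter library, all upward. Sox6 met that level through CTFs-like cells alone in both libraries, so it could not have passed downward. Among all genes 13.6% passed in the wild-type library, 6.06% upward and 7.58% downward, and 12.8% did in the reporter library, 6.94% upward and 5.82% downward. CBFs2-like against CBFs1-like cells gave 0 of 4 members in each library, beside 11.3% of all genes in the wild-type (6.74% upward, 4.59% downward) and 9.81% in the reporter library (3.49% upward, 6.32% downward). Sox9 had the largest wild-type ratio there, 0.49 on the log2 scale (means 0.880 and 0.623).

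**Figure D3:**
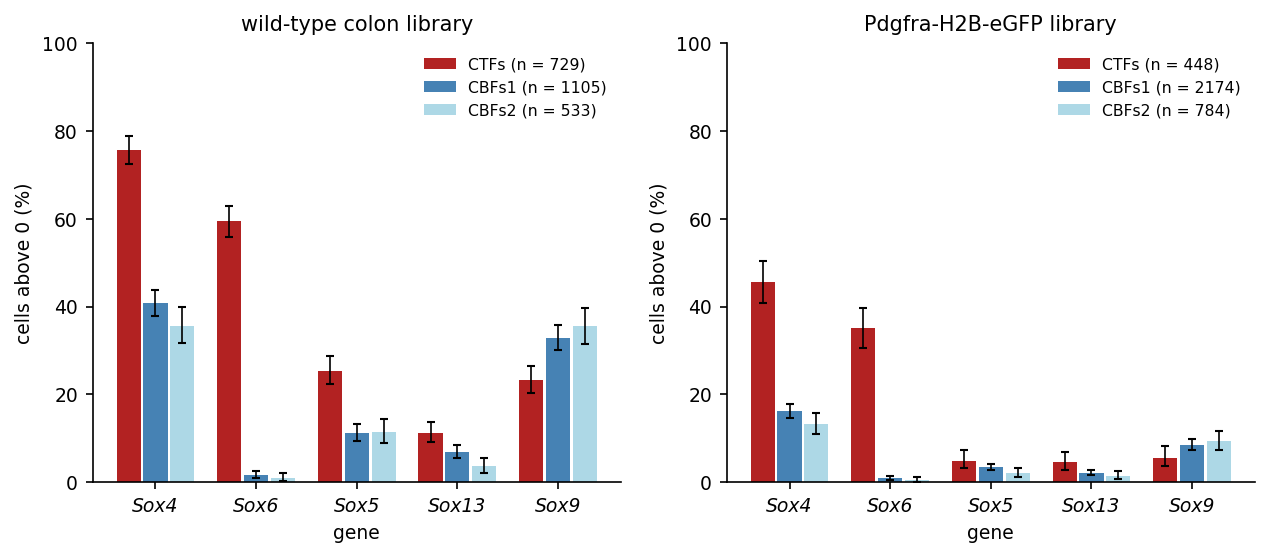
Share of cells above 0 (%, bars) of 5 Sox genes in CTFs-like, CBFs1-like and CBFs2-like cells of the wild-type (left) and reporter (right) library, with 95% Clopper-Pearson intervals (lines) for counting error only. Sox6 reached 59.4% and 35.0% of CTFs-like cells and stayed under 2% in CBFs1-like and CBFs2-like cells, and Sox4 was above 0 in more CTFs-like than CBFs-like cells in both panels.

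Since the study divides these fibroblasts by their Pdgfra level, Sox6 was also read against the Pdgfra count, which is in the general fibroblast panel and in neither panel that tells CTFs from CBFs. Over all wild-type fibroblast-like cells, Sox6 was above 0 in 1.67% of 418 cells without Pdgfra, 4.83% of 786 with 1 to 2 counts, 15.8% of 653 with 3 to 5, 43.6% of 440 with 6 to 10 and 61.3% of 256 with 11 or more. Within the CTFs-like cells with Pdgfra the share ran from 53.5% (1 to 2 counts, 37.7% to 68.8%) to 63.8% (11 or more, 57.3% to 70.0%), intervals that overlap. In the 17 CTFs-like cells without Pdgfra 4 had Sox6 (23.5%, 6.81% to 49.9%), an interval that overlaps that of cells with 1 to 2 counts. It lies under the intervals of CTFs-like cells with 3 to 5 (53.5% to 70.9%), 6 to 10 (51.8% to 63.1%) and 11 or more counts. Within the CBFs-like cells 0 of 352 without Pdgfra had Sox6, which allows up to 0.852%. The share rose to 4.72% of 106 CBFs-like cells with 6 to 10 counts (1.55% to 10.7%). Of the 11 with more Pdgfra, 2 had Sox6 (18.2%, 2.28% to 51.8%). The reporter library gave 2.58%, 9.24% and 23.0% over all fibroblast-like cells with 0, 1 to 2 and 3 to 5 Pdgfra counts, and 33.3%, 36.3% and 36.5% within its CTFs-like cells.

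**Figure D4:**
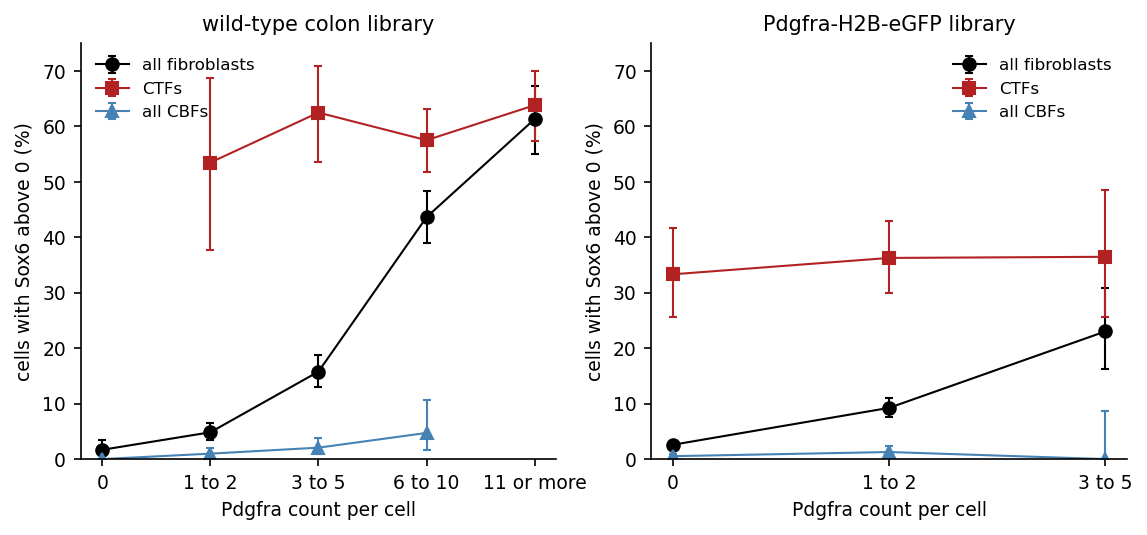
Share of cells with Sox6 above 0 (%) against the Pdgfra count per cell (bins) in all fibroblast-like, CTFs-like and CBFs-like cells of the wild-type (left) and reporter (right) library; lines are 95% Clopper-Pearson intervals for counting error only. The share over all fibroblast-like wild-type cells climbs from 1.67% to 61.3%. The wild-type CTFs-like points drawn, all of cells with Pdgfra, lie between 53.5% and 63.8%, and the CBFs-like points at 4.72% or lower. Bins of fewer than 20 cells are not drawn, among them the 17 wild-type CTFs-like cells without Pdgfra (23.5%).

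Within CTFs-like cells, those with and without Sox5 or Sox4 had Sox6 in similar shares. Sox6 was above 0 in 59.5% of the 185 cells with Sox5 and 59.4% of those without. It was above 0 in 58.9% of the 552 cells with Sox4 and in 61.02% of those without. Sox9 was above 0 in 20.8% of the CTFs-like cells with Sox6 and 27.03% of those without. The summed CTFs markers had a median of 24 in the 433 CTFs-like cells with Sox6 and 22 in the 296 without.

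Among Wnt effectors that Sox proteins are known to bind or oppose, 2 of 6 passed in wild-type CTFs-like over CBFs-like cells, both upward. Lef1, a Wnt-responsive HMG-box factor, had a log2 ratio of 2.18 and Tcf7 one of 1.505, and in the reporter library Lef1 passed with 2.04 (1 of 6) and Tcf7 had 0.81. In the reporter library both met the minimum level through CTFs-like cells alone (CBFs-like means 0.00707 and 0.0135). Neither could have passed downward there. Upward passes made up 6.06% and 6.94% of all genes in these comparisons. The median log2 ratio of the list was 0.24 in the wild-type library, beside -0.01 over all genes, and 0.0018 in the reporter library, beside 0.21. Of the cartilage matrix genes tied to Sox9, Sox5 and Sox6, 2 of 12 met the minimum level in these cells, none passed upward, and Hapln1, a hyaluronan link protein, was lower in wild-type CTFs-like cells (means 0.00823 and 0.371, log2 ratio -4.38). Hapln1 met that level through CBFs-like cells alone, so it could not have passed upward. The other gene, Matn4, had a wild-type log2 ratio of -0.07.

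The other contractile and perivascular cells had Sox4 and Sox5. Sox4 was found in 60.8% of the 897 smooth muscle-like cells (mean 1.54) and 54.2% of 107 pericyte-like cells (mean 1.95). Sox5 was highest in pericyte-like cells, with a mean of 0.514 and 29.9% of cells above 0 (21.4% to 39.5%), an interval that overlaps that of CTFs-like cells (22.3% to 28.7%). Of the smooth muscle-like cells, 14.4% had Sox5 and 2.01% had Sox6.

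The SoxF genes were highest in endothelial-like cells. In 597 blood endothelial-like cells Sox18 had a mean of 3.22 (72.2% above 0), Sox17 of 1.88 (59.8%) and Sox7 of 0.774 (37.2%). In all other gated cells the means were 0.0289, 0.0115 and 0.00772, so that the log2 ratios were 6.37, 6.46 and 5.47. Epithelial-like cells gave 0.741% for Sox18, 0.565% for Sox17 and 0.353% for Sox7. Of the 597 cells, 99 had all 3 SoxF genes above 0, 264 had 2, 185 had 1 and 49 had none. Sox18 was above 0 in 72.3% of cells with Sox17 and 72.1% of cells without it.

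Sox13, of the SoxD family, also passed in blood endothelial-like cells, with a mean of 0.238 against 0.103 (log2 ratio 1.13). It fell under 2-fold with a pseudocount of 0.1 (0.74). Sox6, Sox9 and Sox5 were lower there, at log2 ratios of -3.08, -2.86 and -1.18. Sox10, with 2 such cells against 59 among the others, of which 58 were glia-like, also counted as lower, and Sox4 did not pass (-0.63). In all 8 of 9 members passed, 4 in each direction, beside 39.1% of 13229 genes, 8.82% upward and 30.2% downward. Sox7 and Sox17 met the minimum level through blood endothelial-like cells alone, and Sox6 and Sox10 through the other cells alone. Each of these could therefore pass in 1 direction only, and the Sox10 pass restates its level in glia-like cells.

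Vessel types differed in their SoxF levels. Sox18 had the highest share above 0 of the SoxF genes in arterial-like (77.6%), capillary-like (77.4%) and lymphatic-like cells (60.0%), and Sox7 in venous-like cells (74.0%). In arterial-like cells the Sox18 and Sox17 intervals overlap. In venous-like cells those of Sox7 (64.0% to 82.4%) and Sox17 (48.9% to 69.3%) overlap as well. Arterial-like cells (85), gated by Gja4, Gja5, Sema3g, Fbln5 and Bmx, had the highest Sox17 mean, 3.44, against 1.71 in 337 capillary-like and 1.68 in 96 venous-like cells. The shares above 0 were closer, at 72.9% (62.2% to 82.0%), 61.1% and 59.4%, and their intervals overlap. Venous-like cells, gated by Ackr1, Selp, Sele and Lrg1, had the most Sox7, with a mean of 1.84 and 74.0% of cells above 0 (64.0% to 82.4%). Arterial-like cells followed with 1.00 (45.9%, 35.0% to 57.0%) and capillary-like cells with 0.496 (26.4%, 21.8% to 31.5%). The 3 Sox7 intervals do not overlap. Venous-like cells held more genes, a median of 2595 against 2139 in arterial-like and 2028 in capillary-like cells. With each cell thinned to 2000 counts the order of the Sox7 shares was the same, but the interval of venous-like cells (35.4%, 25.9% to 45.8%) overlapped that of arterial-like cells (16.5%, 9.31% to 26.1%), which overlapped that of capillary-like cells (10.1%, 7.09% to 13.8%).

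Sox18 ran the other way in venous-like cells. It was above 0 in 49.0% of them (38.6% to 59.4%, mean 1.22), against 77.4% of capillary-like (72.6% to 81.8%, mean 3.77) and 77.6% of arterial-like cells (67.3% to 86.0%, mean 3.47). After the same thinning the Sox18 shares were 20.8% (13.2% to 30.3%), 48.1% (42.6% to 53.6%) and 51.8% (40.7% to 62.7%). Sox13 was above 0 in 36.5% of arterial-like cells (26.3% to 47.6%), 16.9% of capillary-like (13.1% to 21.4%) and 10.4% of venous-like cells (5.11% to 18.3%). Thinned, these intervals overlapped, at 12.9% (6.64% to 22.0%), 6.53% (4.14% to 9.72%) and 4.17% (1.15% to 10.3%).

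Lymphatic endothelial-like cells, 45 in number and gated by Prox1, Lyve1 and others, had Sox18 without Sox17. Sox18, known from early lymphatic development, was above 0 in 60.0% (44.3% to 74.3%, mean 1.67). Sox17 and Sox13 were above 0 in 0 of 45 cells, which allows a share of up to 6.67%, and Sox7 in 4.44%. The upper limit for Sox17 lies under the lower bound of every blood vessel type.

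**Figure D5:**
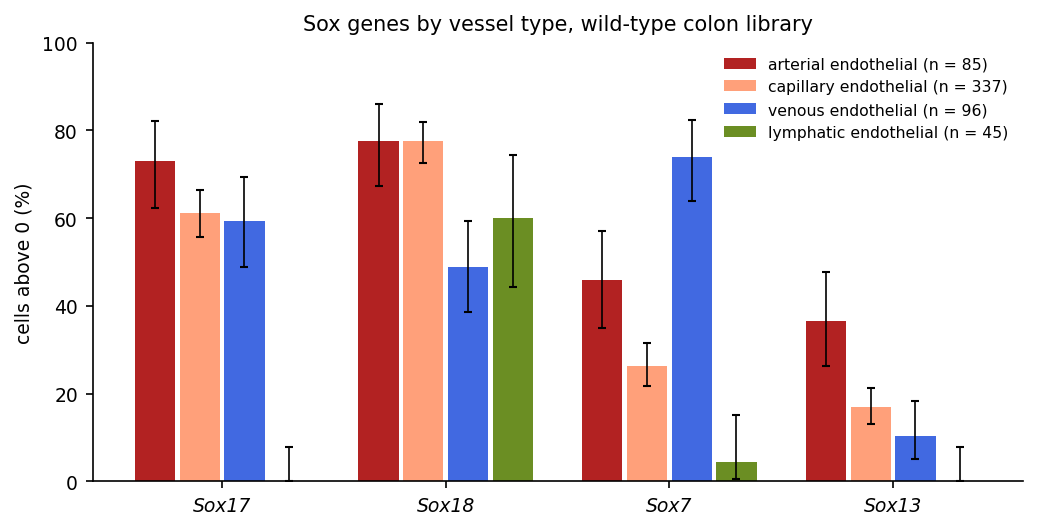
Share of cells above 0 (%, bars) of the SoxF genes Sox17, Sox18 and Sox7 and of Sox13 in arterial-like, capillary-like, venous-like and lymphatic-like endothelial cells of the wild-type library, with 95% Clopper-Pearson intervals (lines) for counting error only. Sox7 peaked in venous-like cells at 74.0%, Sox13 in arterial-like cells at 36.5%, and lymphatic-like cells had Sox18 at 60.0% and Sox17 at 0, where the interval reaches 7.87%.

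Pericyte-like cells had Sox17 and Sox18 above 0 in 15 cells each (14.0%) and Sox7 in 10 (9.35%). These counts sat in a few cells together, since 60.0% of those with Sox17 had Sox18, against 6.52% of those without. In the 21 pericyte-like cells with any SoxF gene the summed 10 blood endothelial markers had a median of 47 and a median of 3269 genes was found per cell, against 3.5 and 2052 in the 86 others. Blood endothelial-like cells had a mean marker sum of 87.8. The same held in smooth muscle-like cells, where 16 cells with a SoxF gene had a median endothelial marker sum of 38.5 against 2 in the other 881. The part of mixed droplets in these SoxF counts was not tested.

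Of 10 vascular genes tied to SoxF factors, 7 passed upward in blood endothelial-like cells and none downward, with a median log2 ratio of 2.94 beside -0.46 over all genes, of which 8.82% passed upward and 30.2% downward. They were Robo4, an endothelial guidance receptor (5.58), Mef2c (4.13), the Notch receptors Notch4 (3.38) and Notch1 (3.13), the Notch target Hey1 (2.94), the Notch ligand Dll4 (2.93) and Efnb2, an arterial ephrin (1.42). Nr2f2, a venous regulator, had 0.78, Vcam1 -0.10 and Rbpj -0.85. Dll4 is also a marker in the Reg4-high secretory panel. Robo4 met the minimum level through blood endothelial-like cells alone. The list was chosen with earlier results of these data known, so the number that passed is a description only.

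Sox10 was found almost only in glia-like cells. Sox10 had a mean of 2.13 in 77 glia-like cells and was above 0 in 58 of them (75.3%, 64.2% to 84.4%). Among the other 7123 gated cells 3 had it above 0, of which 2 were blood endothelial-like and 1 colonocyte-like, and the log2 ratio was 7.66. Those 3 cells had a median glial marker sum of 0, and 3 ungated cells with Sox10 had one of 55.

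Sox6 was the second member that passed upward in glia-like cells, with a mean of 0.688 and 36.4% of cells above 0 (25.7% to 48.1%), against a mean of 0.208 elsewhere (log2 ratio 1.68). Glia-like cells held more fibroblast marker counts than most groups outside the fibroblasts, a mean sum of 30.5 over 10 genes. The median of that sum was 26.5 in the 28 glia-like cells with Sox6 and 24 in the 49 without, and that of the 10 CTFs markers was 6.5 and 5, against 24 in CTFs-like cells with Sox6. Sox10 was above 0 in 78.6% of the glia-like cells with Sox6 and 73.5% of those without.

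Sox9, the other SoxE member, was lower in glia-like cells, 1 count in 77 cells against a mean of 0.926. Sox7, Sox17 and Sox18 were at 0 in all 77, which allows a share of up to 3.90% each. Sox5 was above 0 in 18.2% (mean 0.208, log2 ratio 0.88) and did not pass, nor did Sox13 (0.17) and Sox4 (-0.69). Of the 9 members 6 passed, 2 upward and 4 downward, beside 44.2% of 13362 genes, 9.83% upward and 34.3% downward. Of those 6, Sox10 met the minimum level through glia-like cells alone, and Sox9 and the SoxF genes through the other cells alone. Each of these could pass in 1 direction only. The SoxF level among the other cells was mainly that of blood endothelial-like cells.

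Among neural crest and glial genes tied to SoxE factors, Foxd3, a neural crest factor (log2 ratio 7.64), Mbp, a protein of myelin (2.75), Erbb3, a neuregulin receptor (2.42), and Egr2 (2.17) passed upward in glia-like cells. Ret and Gjb1 were at 0 in all glia-like cells, and Ednrb (0.33) and Mitf (-0.24) did not pass. In the same cells the median log2 ratio over all genes was -0.46, and 9.83% of them passed upward. Of 12 cartilage matrix genes listed, 5 met the minimum level. Col11a1 (mean 0.221 against 0.000281), Col9a2 (0.234 against 0.000983) and Col9a3 (0.299 against 0.00828) met it through the glia-like cells alone. Foxd3 did so too, and none of these could have passed downward. Matn4 (log2 ratio 4.77) and Hapln1 (2.83) met it on both sides and passed upward.

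In the reporter library the endothelial and glial members had little to be read. Sox7 was above 0 in 10 cells in all, among them 7 of 3111 CBFs-like and 1 of 448 CTFs-like cells. Sox9 was above 0 in 8.87% of its CBFs-like and 5.58% of its CTFs-like cells.

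For each member the genes with the most similar pattern were found over the 17 wild-type groups, among 14625 genes, by Pearson's r of the log2 group means. The r values are descriptions over groups of 1 library and carry no p-value. For Sox18 these were Myct1 (0.989), Unc45b and Kdr, the main VEGF receptor (0.985). For Sox17 they were Ssu2 (0.984), Exoc3l2 and AU021092, and for Sox7 Thrsp (0.926), Trpv4 and Zfp366. Sox10 was at 0 in nearly every group, so any gene found only in glia-like cells gives an r near 1 with it. The 3 genes with the highest r were Prelid3a, Dbh and AC121805.2, with 4, 14 and 36 counts in the 77 glia-like cells. For Sox6 they were Bpgm (0.820), Slitrk6 and Serinc5, of which Bpgm was highest in CTFs-like and the others in glia-like cells. Sox5 was followed by Lama2 (0.911), a basement membrane laminin chain, Rem1 and Arhgap42. Sox9 was followed by Fgf1 (0.925), Zfp692 and Kdm1b, Sox4 by Ppig (0.884), Prpf6 and Nsrp1, and Sox13 by AA474408 (0.893), Bcorl1 and Usp42.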

How the data were processed

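Single-cell RNA was measured in 2 colon libraries. The authors aligned reads to mm10 with Cell Ranger and processed cells in Seurat 3.1 under R 3.6.2, per the submitters' notes. The score values as deposited are counts corrected by SCTransform by the authors to a common depth, and the second deposited table of each library holds the natural log of those values plus 1. Sequenced depth per cell cannot be recovered from them.

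Python 3.11.15 with numpy 2.4.6, scipy 1.17.1, pandas 2.3.3 and scanpy 1.11.5 was used, and matplotlib 3.10.9 for figures. A marker counted up to a ceiling, 0.25 of the mean of its 50 highest cells. The panel mean of these capped values had to reach 0.3 and lead the next panel by 0.1, for cell types within a class 0.2 and 0.05. Ratios used a pseudocount of 0.01, a minimum mean of 0.02 and a 2-fold threshold. Shares have 95% Clopper-Pearson intervals, and a count of 0 a limit of 3 cells over the number of cells. The 9 members, gene lists and panels were chosen with earlier results of these data known. Genes named are the members, the lists, and the 3 genes most alike each member. Scrublet called 0.0934% of wild-type and 0.113% of reporter cells doublets. In simulated wild-type data 100 of 100 genes raised 4-fold and 98 of 100 lowered ones passed 2-fold, and 2 of 11252 unchanged genes did. In simulated reporter data these were 100, 91, and 13 of 9327. The simulated counts were Poisson draws around 1 mean per gene, with no added spread between cells or mice and no gating error. They check the calculation and do not give the error rate of the 2-fold calls in these data. Gene names are those of the tables, with promoter windows from RefSeq (GRCm38.p6). Alternatives changed the gate lead, cells kept, depth, group summary, pseudocount, low-level filter and likeness measure. Some genes of the SoxE list are not reported here, so no count or median of that list is given.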

Additional observations from a re-analysis of the deposited data

How the results depend on the processing

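For the main counts and shares, 98 of 109 alternative values stayed within 1.5 times the count or within the interval of the share, and the other 11 follow here. No ratio that passed changed sign. With a pseudocount of 0.1 the members that passed in blood endothelial-like cells went from 8 to 5. With each cell thinned to 2000 counts the share above 0 in the highest group was 50.6% for Sox4, 8.41% for Sox5, 25.4% for Sox6, 15.4% for Sox7, 45.2% for Sox9, 26.0% for Sox10, 6.06% for Sox13, 30.5% for Sox17 and 43.7% for Sox18, lower by construction since fewer counts were kept. By Spearman's rho 7 of the 27 most similar genes were shared with those named, so these names depend on the measure. Shares by vessel type, with a larger lead and without a lead between panels, an alternative chosen after seeing the data, stayed within the intervals given. Leaving out Scrublet doublets removed 7 and 5 cells and is no check on doublets. No paired analysis was possible because each library is 1 sample with no replicate. The limits of these data are 1 library per mouse line, pooled animals, and corrected counts, in which a 0 need not be a lack of molecules.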

Other observations

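The other Sox genes differed in how many groups they were found in. Sox2 had a mean of 1.35 in glia-like cells and was above 0 in 35 of 77 of them (45.5%), and Sox1 was above 0 in 9 (11.7%). Their means over the other gated cells were 0.000281 and 0.000421. Sox8, the third SoxE gene, was above 0 in 15.6% of glia-like, 14.0% of pericyte-like, 12.8% of smooth muscle-like and 13.9% of CBFs1-like cells. Sox21 was found in 14.4% of all epithelial-like cells, with 23.4% of crypt base-like and 5.91% of goblet-like cells above 0. Sox12, a SoxC gene like Sox4, was above 0 in 22.7% of enteroendocrine-like and 17.7% of smooth muscle-like cells. It was found in 11.1% of CTFs-like against 3.90% of CBFs-like wild-type cells (log2 ratio 1.35), and did not pass in the reporter library (0.79). Sox11 was above 0 in 9.41% of arterial-like cells and in 1.27% of all cells.

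Colonocyte-like cells with more Cyp2c55 than Saa1 (326 cells) had Sox4 above 0 in 12.3% (8.91% to 16.3%) and Sox9 in 29.8% (24.8% to 35.0%). Those with more Saa1 (175 cells) had 5.14% (2.38% to 9.54%) and 38.9% (31.6% to 46.5%), and the intervals overlap for both genes. Ungated wild-type cells had Sox18 above 0 in 19.7% and Sox17 in 16.3%, with a mean blood endothelial marker sum of 16.5.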
